A study of Mus musculus with 26 samples.

Results

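Messenger RNA was compared between 2 classes of fast touch afferent of the mouse, the Aβ rapidly adapting low-threshold mechanoreceptors (Aβ RA-LTMRs), in 5 libraries, and the Aβ slowly adapting type 1 mechanoreceptors (Aβ SA1-LTMRs), in 3 libraries. These 8 libraries are the count table's columns named for either subtype, out of 26 libraries of 8 sensory neuron subtypes in all. Every library holds fluorescent neurons sorted from dissociated dorsal root ganglia of all axial levels of adults aged 23 days or more, with several mice and sorting rounds pooled. The Aβ RA-LTMRs carried Npy2r-GFP, a transgene in which the neuropeptide Y receptor gene's regulatory sequence drives a green fluorescent protein, and received no tamoxifen. The Aβ SA1-LTMRs carried TrkCCreER and a Cre-dependent GFP allele of Ret, Retf(GFP), and were labelled by 3 mg of tamoxifen a day given to the mother at E12.5, an embryonic day. That allele makes the label depend on TrkC and on Ret together. Transgene, tamoxifen and subtype go together in this design and cannot be told apart.

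Both classes are large, myelinated Aβ fibres of the skin. By textbook account, rapidly adapting afferents form lanceolate endings around hair follicles or innervate corpuscles and fire as a stimulus starts and stops, while slowly adapting type 1 afferents contact Merkel cells and keep firing through a sustained indentation. In both, the touch channel Piezo2 turns a mechanical stimulus into current, and voltage-gated channels shape the train of action potentials that follows. Levels below are CPM, counts scaled to the library's total with edgeR's TMM factors, which are comparable between libraries for one gene and not between genes. Each log2FC is the log2 fold change of Aβ RA-LTMRs over Aβ SA1-LTMRs, positive where Aβ RA-LTMRs are higher, from edgeR's quasi-likelihood test, and each adjusted p is its Benjamini-Hochberg value over the 17411 genes tested, of 39017 in the table. A gene passed at an adjusted p under 0.05 and a log2FC of at least 1 in either direction. Values are given in the order of the library numbers.

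Depth ran from 22651313 to 55983697 counts in the Aβ RA-LTMR libraries and from 54333747 to 60181509 in the Aβ SA1-LTMR libraries. Aβ RA-LTMR libraries 4 and 5 are the shallowest and have reads of 15 to 50 bases, where libraries 1 to 3 and the 3 Aβ SA1-LTMR libraries have reads of 25 to 50 bases. Library 5 also has the lowest exonic share, 45.7%. Across genes, Aβ RA-LTMR libraries correlated with one another at r = 0.949 to 0.985 on the log2 CPM scale, Aβ SA1-LTMR libraries at 0.933 to 0.951, and libraries of different classes at 0.914 to 0.95. The range within Aβ SA1-LTMRs thus overlapped the range between the classes, and Aβ SA1-LTMR library 1 correlated with the other Aβ SA1-LTMR libraries at 0.933 and 0.94. The female transcript Xist and the Y-linked Ddx3y were both well above 0 in Aβ RA-LTMR libraries 4 and 5 and in Aβ SA1-LTMR libraries 2 and 3, and in the other 4 libraries one of the pair was at or near 0. Sex was therefore mixed unevenly over the pools.

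RNA of other cells was measured beside the neuronal genes, by the mean log2 CPM of lists of marker genes. The 16 markers of satellite glia, the cells that wrap each ganglion neuron, had a mean of 6.30 ± 0.25 (SD, n = 5) in Aβ RA-LTMR libraries and 5.32 ± 0.33 (SD, n = 3) in Aβ SA1-LTMR libraries, and the groups did not overlap. Their summed level was 2119 to 4453 CPM against 1191 to 1532 CPM. Of these markers 8 passed as higher in Aβ RA-LTMRs and 0 as higher in Aβ SA1-LTMRs, against 6.69% and 3.65% of all genes tested (DESeq2's Wald test called 9 and 0, and 13 and 0 had an unadjusted p under 0.05 in edgeR). Myelinating Schwann cell markers, 11 of 12 tested, stood at 2.65 against 1.60 with 3 higher in Aβ RA-LTMRs, while their summed levels overlapped, at 555 to 772 CPM against 549.8 to 748 CPM. Endothelial markers stood at -1.63 against -2.69 with 4 of 11 higher in Aβ RA-LTMRs, and summed to 6.18 to 20.98 CPM against 8.03 to 9.77 CPM. Macrophage markers, 5 of 12 tested, summed to 1.09 to 2.78 CPM in Aβ RA-LTMRs and 0.300 to 8.68 CPM in Aβ SA1-LTMRs. In the other direction, 22 genes of nociceptors and C-fibres averaged 2.89 in Aβ RA-LTMRs and 3.66 in Aβ SA1-LTMRs, again with no overlap, while their summed levels overlapped, at 784 to 1137 CPM against 1043 to 1182 CPM. Of these genes 7 passed as higher in Aβ SA1-LTMRs against 3 higher in Aβ RA-LTMRs. The satellite glia, Schwann cell, endothelial and nociceptor differences each reached p = 0.0357 in a two-sided exact permutation test of the mean log2 CPM. This test doubles the p of a single tail, and 0.0357 is the smallest it can give for 5 libraries against 3. Each difference had an adjusted p of 0.0982 over the 11 lists scored. For macrophages the exact permutation p was 0.714 (adjusted p = 0.786). With Aβ RA-LTMR libraries 1 to 3 the satellite glia difference was 0.92 (exact permutation p = 0.1, the smallest possible). The part of this RNA in the neuronal differences was not tested. A further fit took the satellite glia score as a term, called the glia covariate below, and calls that end under it are named below. In bulk samples fewer cells of a type and less RNA per cell cannot be told apart.

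**Figure D1:**
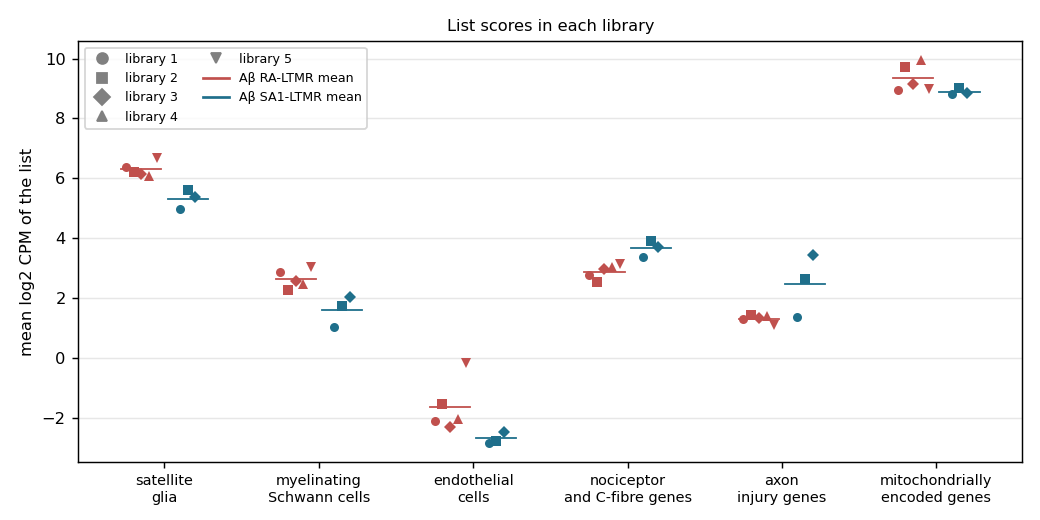
Mean log2 CPM of 6 gene lists (y axis) in each library, with Aβ RA-LTMRs in red and Aβ SA1-LTMRs in blue, a marker shape for each library number and a line at each group's mean. Satellite glia, Schwann and endothelial scores lie higher in every Aβ RA-LTMR library, nociceptor and C-fibre genes lie higher in every Aβ SA1-LTMR library, and Aβ SA1-LTMR library 1 sits with the Aβ RA-LTMR libraries for axon injury genes.

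The mean log2 CPM of injury genes set the Aβ SA1-LTMR libraries apart from one another, while their summed level set the classes apart. The 15 genes known to rise after axon damage averaged 1.31 ± 0.14 (SD, n = 5) in Aβ RA-LTMRs, and stood at 1.38, 2.64 and 3.43 in Aβ SA1-LTMR libraries 1, 2 and 3. Their summed level was 535 to 775 CPM in Aβ RA-LTMRs and 970 to 1160 CPM in Aβ SA1-LTMRs, without overlap. Of the 15 genes, 7 passed as higher in Aβ SA1-LTMRs and 1 as higher in Aβ RA-LTMRs, against 3.65% and 6.69% of all genes tested. Npy, the peptide gene that sensory neurons switch on after nerve injury, had 0 counts in the 5 Aβ RA-LTMR libraries and 0.0917, 4.63 and 14.6 CPM in the Aβ SA1-LTMR libraries, where the group level was at least 459-fold higher than the 3 counts that a count of 0 allows over the Aβ RA-LTMR group. Npy did not pass with the glia covariate (adjusted p = 0.0863). Gap43, the growth cone gene, stood at 4.92, 9.44, 13.1, 13.5 and 12.3 CPM in Aβ RA-LTMRs and 33.2, 25.8 and 40.0 CPM in Aβ SA1-LTMRs (log2FC -1.64, SE 0.27, adjusted p = 0.000193), with no overlap. The exact permutation test of this list's score gave p = 0.107 (adjusted p = 0.168 over the 11 lists).

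Over all genes, 1799 passed, or 10.3% of those tested, with 1164 (6.69%) higher in Aβ RA-LTMRs and 635 (3.65%) higher in Aβ SA1-LTMRs. These shares are the background for each count of list members below. Every Aβ RA-LTMR library lay above every Aβ SA1-LTMR library for 7.82% of genes and below for 6.26%, or 14.1% in all, which is the background for each gene below whose classes did not overlap. Among the 9908 genes with a mean of at least 5 CPM in either class the split was 377 against 310, or 3.81% and 3.13%. Of the genes higher in Aβ RA-LTMRs, 253 had 0 counts in the 3 Aβ SA1-LTMR libraries, and 17 of those higher in Aβ SA1-LTMRs had 0 counts in the 5 Aβ RA-LTMR libraries. These counts are not on an equal footing, as 0 must hold over 3 libraries in one class and 5 in the other. Genes with any count numbered 19581, 19304, 20027, 19462 and 17572 in Aβ RA-LTMR libraries and 16773, 17276 and 18356 in Aβ SA1-LTMR libraries. The part of this detection difference in the 253 and 17 was not tested. With Aβ RA-LTMR libraries 1 to 3, which share the read length of the Aβ SA1-LTMR libraries, 1023 (5.9%) and 579 (3.34%) passed, and 905 and 456 of the calls from all libraries were among them. Under the glia covariate the counts were 286 (1.64%) and 242 (1.39%). A fit of the 8 libraries without the other subtypes called 424 (2.78%) and 258 (1.69%). Aβ RA-LTMR libraries 1 to 3 and the 3 Aβ SA1-LTMR libraries, again without the other subtypes and called the 6-library fit below, gave 290 (1.96%) and 218 (1.47%). No gene called in the 26-library fit was called in the opposite direction by any of these alternatives. The median log2FC of all genes tested was 0.00.

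**Figure D2:**
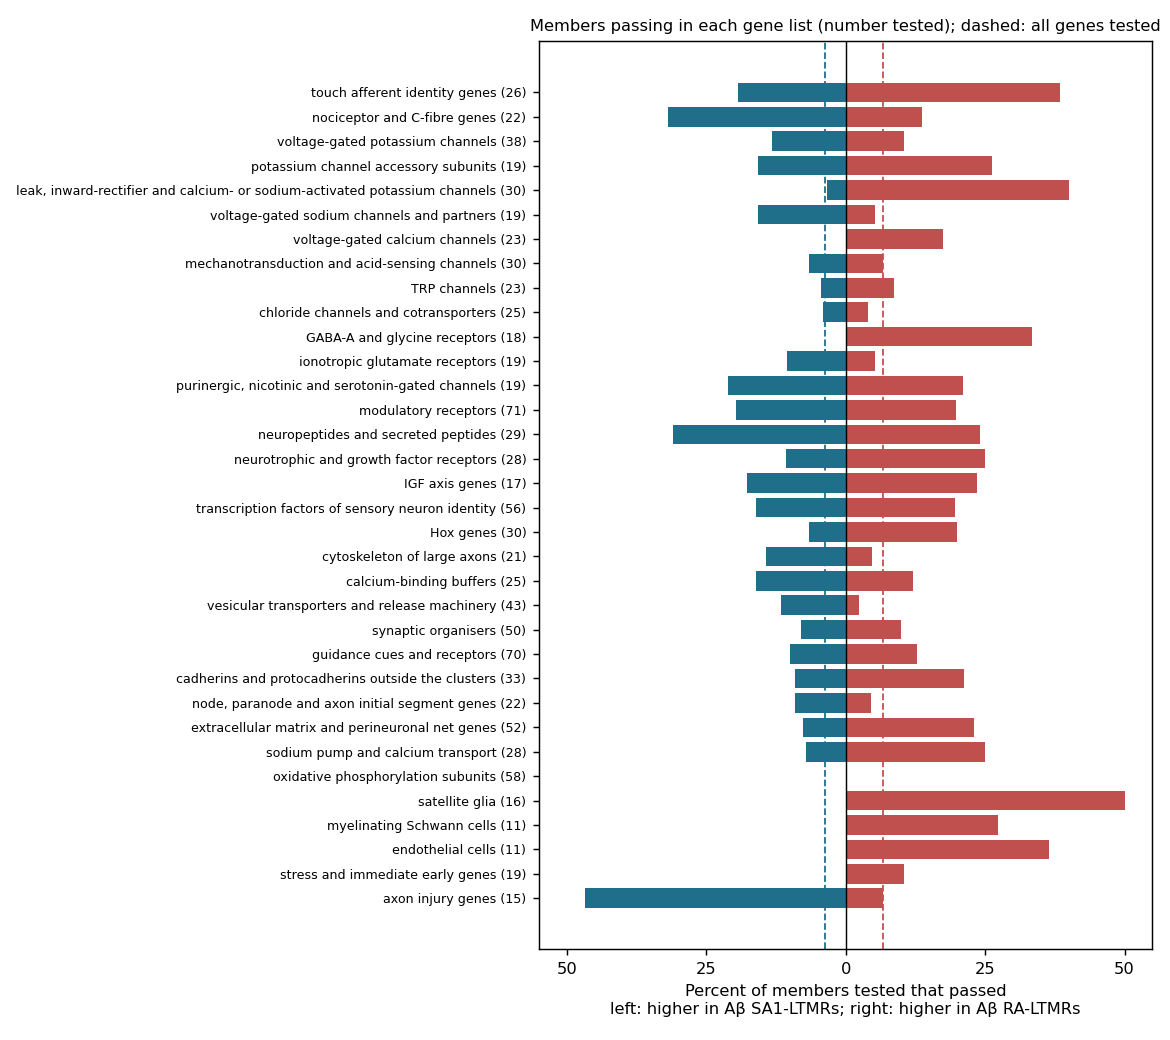
Share of the tested members of each gene list that passed, in percent (x axis), to the right where Aβ RA-LTMRs are higher and to the left where Aβ SA1-LTMRs are higher, for lists with at least 10 members tested. Dashed lines mark the shares over all genes, 6.69% and 3.65%. Bars for satellite glia, leak and inward-rectifier potassium channels and touch identity genes reach far to the right, those for axon injury, nociceptor and peptide genes far to the left, and oxidative phosphorylation has none.

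The genes behind the reporters were read first, as a check of the labels, and gene positions are those of GENCODE on mm10. Npy2r (chromosome 3, 82538383 to 82548084) stood at 15.4, 25.9, 25.1, 19.9 and 15.6 CPM in Aβ RA-LTMRs and 1.05, 3.99 and 0 CPM in Aβ SA1-LTMRs. No library of one class reached the other (log2FC 3.63, SE 0.76, adjusted p = 0.00218). Ntrk3 (chromosome 7, 78175959 to 78738012), which encodes the neurotrophin-3 receptor TrkC and drives the Aβ SA1-LTMR Cre line, stood at 55.9, 44.6, 62.1, 57.6 and 26.2 CPM against 220.2, 164 and 197 CPM (log2FC -1.97, SE 0.28, adjusted p = 3.76e-05), again apart. Ret (chromosome 6, 118151745 to 118197718), the receptor of glial cell line-derived factors, was read in both classes but higher in Aβ RA-LTMRs, at 629, 533, 617, 464 and 582 CPM against 311, 276 and 236 CPM (log2FC 1.04, SE 0.17, adjusted p = 0.000177). The Aβ SA1-LTMRs carry a reporter allele at Ret itself, so for this gene allele and subtype cannot be told apart. Which reads of that allele are counted is not given in the sources used here. Without Aβ SA1-LTMR library 3 the Ret difference missed the fold threshold (log2FC 0.95, adjusted p = 0.00241), as it did with limma on the authors' RPKM (log2FC 0.94, adjusted p = 0.00575). The Npy2r log2FC was 5.26 without library 2 and 3.03 without library 3. Npy2r did not pass in the 6-library fit (log2FC 3.75, adjusted p = 0.1) or with the glia covariate (log2FC 3.06, adjusted p = 0.0691), while Ntrk3 (log2FC -1.63, adjusted p = 0.0315) and Ret (log2FC 1.21, adjusted p = 0.00549) passed with the covariate.

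Genes with the largest folds were taken, in each direction, as the 12 with the largest fold among those passing at 5 CPM or more in the higher class with at least 4 counts in the lower class and no overlap. As they were chosen by this contrast, their values are a description. Highest in Aβ RA-LTMRs relative to Aβ SA1-LTMRs was Cbln4 (chromosome 2, 172036233 to 172043466), a secreted cerebellin that organises synapses, at 13.3, 14.9, 15.0, 17.2 and 8.90 CPM against 0.0306, 0.0429 and 0 CPM, which is 2932 counts against 4 (log2FC 9.07, SE 0.96, adjusted p = 4.81e-07). The calcium buffers calretinin, encoded by Calb2 (chromosome 8, 110137502 to 110168210), and calbindin, encoded by Calb1 (chromosome 4, 15881264 to 15908064), came next. Calb2 stood at 6.38, 4.94, 3.83, 8.22 and 13.6 CPM against 0, 0 and 0.143 CPM (log2FC 7.13, SE 1.17, adjusted p = 0.000165). Calb1 stood at 383, 493, 425, 189.6 and 365 CPM against 9.47, 2.83 and 6.95 CPM (log2FC 5.85, SE 0.65, adjusted p = 1.6e-06). Library 4 was the lowest for Calb1 and still lay far above every Aβ SA1-LTMR library.

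Lhfpl2 and Dapk1 varied little between Aβ RA-LTMR libraries. Lhfpl2 (chromosome 13, 94057796 to 94195409), a tetraspan membrane protein, stood at 74.2, 69.2, 69.6, 77.8 and 60.0 CPM against 3.50, 4.95 and 4.66 CPM (log2FC 4.01, SE 0.26, adjusted p = 2.82e-10). Dapk1, a calcium/calmodulin-dependent kinase, stood at 90.1, 85.2, 79.3, 63.9 and 86.3 CPM against 1.80, 4.8 and 3.82 CPM (log2FC 4.55, SE 0.34, adjusted p = 2.31e-09). Both were counted in every Aβ SA1-LTMR library too. St8sia4 (chromosome 1, 95587682 to 95667571), which makes polysialic acid on the adhesion molecule NCAM, stood at 29.7, 37.9, 33.4, 24.1 and 24.6 CPM against 0.672, 1.71 and 0.254 CPM (log2FC 5.11, SE 0.68, adjusted p = 1.36e-05). The others given here were the fibroblast growth factor receptor Fgfr2 (6.95 against 0.185 CPM), the gap junction gene Gjd2 (6.56 against 0.312 CPM), the netrin receptor Unc5d (35.2 against 2.10 CPM), the tachykinin receptor Tacr3 (16.6 against 1.03 CPM) and Colq, the collagen tail of acetylcholinesterase (5.66 against 0.387 CPM). Folds of such low Aβ SA1-LTMR levels turned on single libraries: without library 3 the log2FC was 11.42 for Calb2, 9.24 for Fgfr2 and 5.63 for Colq, without library 2 6.005 for St8sia4, and without library 1 6.51 for Calb2, 4.97 for Tacr3 and 4.75 for Unc5d. All 12 passed again with each library left out and with Aβ RA-LTMR libraries 1 to 3. Calb2 alone among them missed the threshold with the glia covariate (log2FC 4.51, adjusted p = 0.0591).

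In Aβ SA1-LTMRs the gene of this group with a known part in sensory neuron identity was Runx3 (chromosome 4, 135120652 to 135177990), a Runt-domain transcription factor known from the development of TrkC proprioceptors. It stood at 1.76, 1.07, 4.20, 3.42 and 0.156 CPM in Aβ RA-LTMRs and 42.9, 74.4 and 68.3 CPM in Aβ SA1-LTMRs (log2FC -4.87, SE 0.57, adjusted p = 2.62e-06). Every Aβ SA1-LTMR library lay far above every Aβ RA-LTMR library. The same held for Cyp1b1 (chromosome 17, 79701537 to 79715061), a cytochrome P450, at 3.34, 3.37, 3.00, 2.62 and 3.09 CPM against 44.5, 80.9 and 89.7 CPM (log2FC -4.53, SE 0.32, adjusted p = 8.34e-10). Fam19a4, also called Tafa4, encodes a secreted chemokine-like protein best known from C-LTMRs and stood at 1.76, 1.38, 1.60, 0.933 and 0.843 CPM against 34.1, 19.0 and 21.5 CPM (log2FC -4.21, SE 0.28, adjusted p = 2.82e-10). Each of these 3 passed with every library left out, with Aβ RA-LTMR libraries 1 to 3 and with the glia covariate.

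Others in the group of 12 were the zinc finger gene Ikzf1 (20.6, 1.29 and 10.7 CPM in Aβ SA1-LTMRs, 0.268 in Aβ RA-LTMRs), the synaptotagmin Syt17 (11.1 against 0.270 CPM), Shisa6, an AMPA receptor partner (13.9 against 0.401 CPM), the matrix metalloproteinase Mmp25 (34.3 against 1.16 CPM) and the inward rectifier Kcnj2, taken up with the potassium channels. The last were Rerg, a Ras-like protein (16.3 against 0.897 CPM), Rgs5, a regulator of G-protein signalling (19.4 against 1.24 CPM), the adhesion receptor Gpr133 (51.1 against 3.10 CPM) and the adaptor Lcp2 (7.05 against 0.461 CPM). Ikzf1 varied widely between Aβ SA1-LTMR libraries, and its log2FC went from -5.31 to -4.45 without library 1. Leaving out an Aβ RA-LTMR library moved Shisa6 to -5.83 (library 5) and Rerg to -4.83 (library 1). Rgs5, which is also a pericyte marker, did not pass without Aβ SA1-LTMR library 2 (log2FC -3.78, adjusted p = 0.0508) or with the glia covariate (log2FC -4.81, adjusted p = 0.141), and Ikzf1 did not pass with the glia covariate either (log2FC -3.83, adjusted p = 0.0808). With Aβ RA-LTMR libraries 1 to 3 Rgs5 was further apart (log2FC -4.85, adjusted p = 0.0395).

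**Figure D3:**
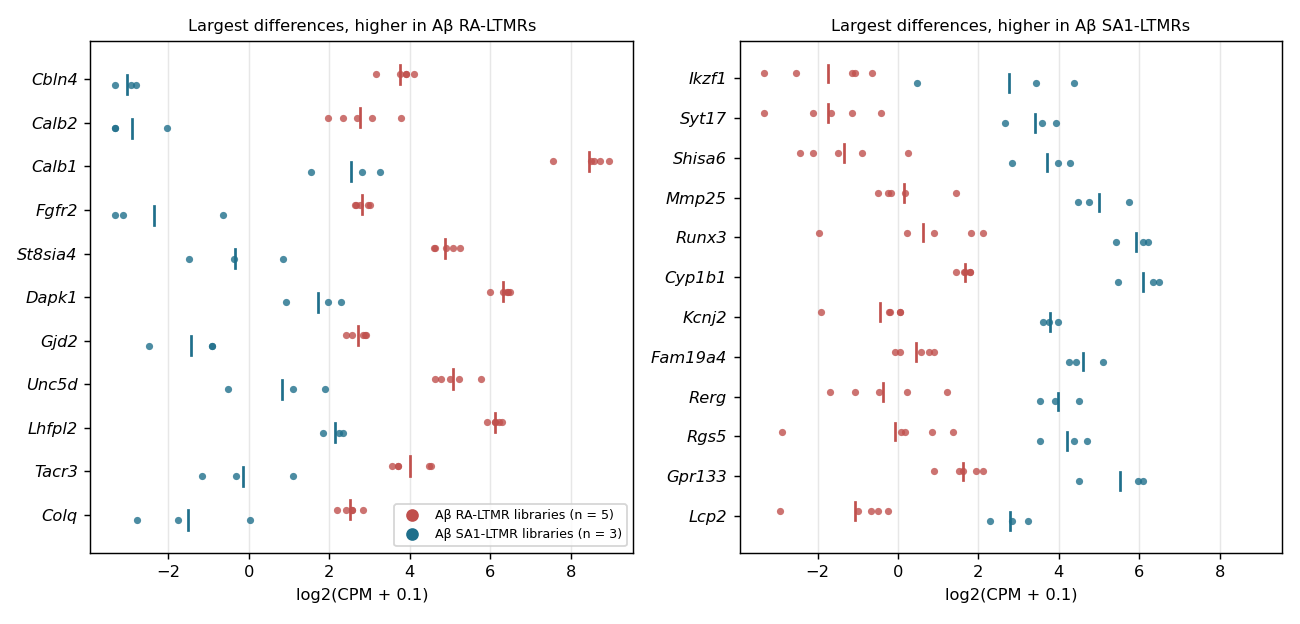
Level of 23 of the 24 genes with the largest folds in each library, as log2(CPM + 0.1) (x axis), with 11 higher in Aβ RA-LTMRs at left and the 12 higher in Aβ SA1-LTMRs at right. Dots are libraries and short lines are group means. In every row the red dots of the 5 Aβ RA-LTMR libraries and the blue dots of the 3 Aβ SA1-LTMR libraries stand apart. The choice of these genes required this.

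Promoter sequence is shown for genes at the head of both groups, because Runx3 encodes a factor with a known DNA motif. RefSeq promoters on GRCm38.p6 were matched for 15 of the 24 genes, and the 250 bases before the start were searched for the Runt-domain core hexamer TGTGGT. Both strands were read, and a match on the opposite strand appears in these lines as ACCACA. Matches are in capitals, and each sequence reads 5′ to 3′ in the direction of its gene. The lines give the 2 annotated starts of Runx3 (chr4:135120395-135120644, plus strand and chr4:135152295-135152544, plus strand), then Cyp1b1 (chr17:79715062-79715311, minus strand), and then, from the genes higher in Aβ RA-LTMRs, St8sia4 (chr1:95667595-95667844, minus strand), Cbln4 (chr2:172043467-172043716, minus strand) and Lhfpl2 (chr13:94057546-94057795, plus strand).
Runx3, first start: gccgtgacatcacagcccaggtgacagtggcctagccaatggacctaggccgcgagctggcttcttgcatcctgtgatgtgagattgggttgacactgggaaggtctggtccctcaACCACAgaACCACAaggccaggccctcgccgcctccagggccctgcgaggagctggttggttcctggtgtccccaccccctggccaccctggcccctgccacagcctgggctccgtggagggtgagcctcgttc
Runx3, second start: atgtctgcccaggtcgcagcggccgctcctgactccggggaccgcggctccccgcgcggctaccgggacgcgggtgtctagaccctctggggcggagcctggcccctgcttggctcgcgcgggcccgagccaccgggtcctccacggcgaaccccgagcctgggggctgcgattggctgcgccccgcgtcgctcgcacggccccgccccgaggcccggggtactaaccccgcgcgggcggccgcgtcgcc
Cyp1b1: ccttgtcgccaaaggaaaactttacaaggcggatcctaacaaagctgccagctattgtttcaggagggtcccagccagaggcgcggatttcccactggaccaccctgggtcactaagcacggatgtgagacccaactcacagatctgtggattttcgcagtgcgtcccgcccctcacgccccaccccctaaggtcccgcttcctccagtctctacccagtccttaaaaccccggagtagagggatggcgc
St8sia4: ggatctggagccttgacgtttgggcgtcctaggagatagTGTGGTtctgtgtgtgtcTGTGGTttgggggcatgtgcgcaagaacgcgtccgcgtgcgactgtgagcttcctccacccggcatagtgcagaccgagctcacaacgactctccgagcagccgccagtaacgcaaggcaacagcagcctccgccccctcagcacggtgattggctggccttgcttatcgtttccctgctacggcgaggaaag
Cbln4: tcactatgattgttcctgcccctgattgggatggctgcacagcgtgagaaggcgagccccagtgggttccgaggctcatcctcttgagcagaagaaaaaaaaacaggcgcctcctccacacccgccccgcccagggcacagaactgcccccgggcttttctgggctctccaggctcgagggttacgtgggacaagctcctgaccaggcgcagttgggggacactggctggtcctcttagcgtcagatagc
Lhfpl2: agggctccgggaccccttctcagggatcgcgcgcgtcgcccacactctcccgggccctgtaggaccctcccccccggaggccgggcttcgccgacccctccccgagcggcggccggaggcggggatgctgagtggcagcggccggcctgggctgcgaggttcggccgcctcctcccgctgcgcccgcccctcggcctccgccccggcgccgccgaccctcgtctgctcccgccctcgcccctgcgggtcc
The first Runx3 start held 2 matches close together and the second none, and St8sia4, which is higher in Aβ RA-LTMRs, held 2. At the first start of each gene, 2 of the 15 promoters held the hexamer, against 14.2% of all 27025 promoters of that length. A match describes letters in this window and not binding.

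Identity genes of touch afferents split in both directions. Of 26 such genes, all tested, 10 passed as higher in Aβ RA-LTMRs, 5 as higher in Aβ SA1-LTMRs and 11 did not pass, with a median log2FC of 0.60. Ntrk2, the gene of the BDNF receptor TrkB, stood at 444, 426, 474, 423 and 431 CPM in Aβ RA-LTMRs and 60.9, 104 and 92.8 CPM in Aβ SA1-LTMRs (log2FC 2.36, SE 0.21, adjusted p = 2.73e-08). The classes lay far apart, with Aβ RA-LTMR libraries within a narrow range. Shox2, a homeobox gene tied to TrkB touch neurons, stood at 36.3 ± 9.98 (SD, n = 5) against 8.04 ± 2.76 CPM (SD, n = 3), without overlap (log2FC 2.18, SE 0.49, adjusted p = 0.004), but it did not pass with the glia covariate (log2FC 1.11, adjusted p = 0.384). Cntnap2, an axonal adhesion gene, was higher in Aβ SA1-LTMRs at 343 ± 14.3 against 159 ± 26.6 CPM (log2FC -1.11, SE 0.14, adjusted p = 8.5e-06), a difference that fell just under the fold threshold with Aβ RA-LTMR libraries 1 to 3 (log2FC -0.97, adjusted p = 8.71e-05) and in the 6-library fit (log2FC -0.96, adjusted p = 0.004). Maf, a transcription factor of rapidly adapting neurons in development, was 30.1 ± 3.23 CPM in Aβ RA-LTMRs and 48.2 ± 6.90 CPM in Aβ SA1-LTMRs. Every Aβ SA1-LTMR library was the higher, but the test was not passed (log2FC -0.68, SE 0.24, adjusted p = 0.0552), except with the glia covariate (log2FC -1.25, adjusted p = 0.0215). Gfra2, the neurturin receptor, stood at 58.3, 40.0, 45.9, 56.4 and 47.5 against 4.96, 37.2 and 17.5 CPM (log2FC 1.32, SE 0.38, adjusted p = 0.0193), and Pvalb, the calcium buffer parvalbumin, at 27.1, 18.4, 15.8, 22.3 and 36.7 against 37.0, 52.3 and 70.1 CPM (log2FC -1.14, SE 0.34, adjusted p = 0.0229). These calls were the least secure of the list. Gfra2 did not pass with the glia covariate (log2FC 0.42, adjusted p = 0.698), with Aβ RA-LTMR libraries 1 to 3 (log2FC 1.27, adjusted p = 0.0508), in the 8 libraries alone (log2FC 1.35, adjusted p = 0.122), in the 6-library fit (log2FC 1.29, adjusted p = 0.251), or without Aβ SA1-LTMR library 1 (log2FC 0.86, adjusted p = 0.0691) or 3 (log2FC 1.24, adjusted p = 0.0633), and was 2.15 without library 2. Pvalb did not pass without Aβ RA-LTMR library 2 (log2FC -1.06, adjusted p = 0.0527) or 3 (log2FC -1.02, adjusted p = 0.0555) or without Aβ SA1-LTMR library 3 (log2FC -0.89, adjusted p = 0.11), and its fold was larger with the glia covariate (log2FC -2.17, adjusted p = 0.005).

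Nefh, the heavy neurofilament (log2FC -0.33, SE 0.19, adjusted p = 0.279), the vesicular glutamate transporter Slc17a7 (log2FC 0.46, SE 0.25, adjusted p = 0.242) and Pou4f3 (log2FC -0.58, SE 0.23, adjusted p = 0.0906) were identity genes that did not pass, as was Spp1, which encodes osteopontin (log2FC 1.19, SE 0.42, adjusted p = 0.0591). Spp1 passed in the fit of the 8 libraries alone (log2FC 1.22, adjusted p = 0.0289), with DESeq2's Wald test and without Aβ RA-LTMR library 2 (log2FC 1.33, adjusted p = 0.0415).

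Transcription factors of sensory neurons followed the same mixed pattern, with 11 of 56 higher in Aβ RA-LTMRs, 9 higher in Aβ SA1-LTMRs and a median log2FC of 0.21, or 0.16 with genes at 0 counts in one class set to their bound. The paralogs Runx1 and Runx3 moved in opposite directions: Runx1 stood at 74.4, 85.5, 103, 71.3 and 69.5 CPM in Aβ RA-LTMRs against 8.75, 36.0 and 18.6 CPM in Aβ SA1-LTMRs (log2FC 1.94, SE 0.44, adjusted p = 0.00428). Runx1 rose to 2.57 without Aβ SA1-LTMR library 2 and no longer passed with the glia covariate (log2FC 1.04, adjusted p = 0.315). Bcl11b, a zinc finger repressor, stood at 1.23, 1.05, 1.49, 1.07 and 1.25 CPM against 16.1, 18.0 and 12.55 CPM (log2FC -3.67, SE 0.37, adjusted p = 2.4e-07), with each class in a tight range. Its value under the glia covariate was as large (log2FC -4.36, adjusted p = 6.1e-06). Runx1t1, a corepressor of the ETO family, was higher in Aβ SA1-LTMRs at 72.3 ± 17.0 against 18.0 ± 4.24 CPM (log2FC -2.002, SE 0.21, adjusted p = 3.31e-07). Meis2, a homeobox cofactor, was higher there too, at 76.2 ± 14.7 against 23.3 ± 3.02 CPM (log2FC -1.71, SE 0.20, adjusted p = 2.59e-06). Hox genes, which record axial level, had 6 of 30 higher in Aβ RA-LTMRs and 2 higher in Aβ SA1-LTMRs. In the 8 libraries alone these counts were 1 and 0, and with the glia covariate 5 and 0. Hoxa5, of the cervical and upper thoracic range, stood at 4.79, 4.21, 4.92, 5.15 and 5.15 CPM against 0.962, 1.09 and 1.73 CPM (log2FC 1.93, SE 0.29, adjusted p = 5.73e-05), without overlap, and the share of ganglia of each level in the pools is not given in the labels.

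Potassium channels set the interval between action potentials and the resting potential. Among 38 voltage-gated pore subunits tested, 4 were higher in Aβ RA-LTMRs and 5 in Aβ SA1-LTMRs, with a median log2FC of -0.39. Kcnq5, a subunit of the slow current that damps repetitive firing, stood at 5.61, 8.03, 12.4, 10.5 and 4.78 CPM in Aβ RA-LTMRs and 55.5, 18.9 and 18.0 CPM in Aβ SA1-LTMRs (log2FC -1.90, SE 0.31, adjusted p = 0.000174). The classes did not overlap, and Aβ SA1-LTMR library 1 was the highest of its class: without it the log2FC was -1.16. It did not pass with the glia covariate (log2FC -1.27, adjusted p = 0.144) or in the 6-library fit (log2FC -1.82, adjusted p = 0.0704).

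Kcna1 and Kcna2, the Kv1 channels that brake repetitive firing, did not pass. Kcna1 stood at log2FC -0.40, SE 0.19, adjusted p = 0.177, and Kcna2, at log2FC -0.61, SE 0.20, adjusted p = 0.0456, missed on the size of its fold. Kcna2 stood at 313, 331, 354, 407 and 247 CPM against 602, 511 and 401 CPM, where Aβ RA-LTMR library 4 alone lay inside the Aβ SA1-LTMR range. Kcnc1, a fast-spiking Kv3 channel, did not pass (log2FC -0.38, SE 0.19, adjusted p = 0.199), whereas its relative Kcnc2 stood at 3.87 ± 0.968 against 0.867 ± 0.360 CPM and passed (log2FC 2.13, SE 0.31, adjusted p = 4.09e-05). Kcnc2 did not pass in the 6-library fit (log2FC 2.08, adjusted p = 0.0606), where its fold was about as large. Kcna4, an A-type channel, stood at 5.21, 7.55, 7.39, 6.31 and 1.94 CPM against 1.33, 2.10 and 0.970 CPM (log2FC 1.97, SE 0.46, adjusted p = 0.00474), with library 5 inside the Aβ SA1-LTMR range. It did not pass with the glia covariate (log2FC 1.77, adjusted p = 0.12) or with limma on the authors' RPKM (log2FC 0.34, adjusted p = 0.729). Kcng3, a silent subunit, was higher in Aβ SA1-LTMRs (log2FC -1.58, SE 0.39, adjusted p = 0.00684), but did not pass in the 6-library fit (log2FC -1.57, adjusted p = 0.055) or with the glia covariate (log2FC -1.46, adjusted p = 0.193), with folds near the first.

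Accessory subunits of potassium channels gave 5 of 19 higher in Aβ RA-LTMRs and 3 higher in Aβ SA1-LTMRs. The 3 were all Kv4-interacting proteins, Kcnip1, Kcnip2 and Kcnip4. In the 8 libraries alone the counts of this list were 1 and 2, and with the glia covariate 1 and 4. Kcnip1 stood at 6.46, 6.07, 6.08, 9.55 and 10.6 CPM in Aβ RA-LTMRs and 43.3, 45.0 and 31.7 CPM in Aβ SA1-LTMRs (log2FC -2.38, SE 0.39, adjusted p = 0.000174), and Kcnip2 at 4.66, 2.70, 3.87, 7.77 and 4.25 against 5.19, 15.8 and 18.0 CPM (log2FC -1.50, SE 0.30, adjusted p = 0.0012), where Aβ SA1-LTMR library 1 lay within the Aβ RA-LTMR range. Kcnip2 did not pass in the 8 libraries alone (log2FC -1.46, adjusted p = 0.0651) or in the 6-library fit (log2FC -1.78, adjusted p = 0.0681). Kcnmb2, which inactivates BK channels, stood at 3.50, 1.28, 2.98, 2.18 and 3.31 CPM against 0.183, 0.193 and 0.159 CPM (log2FC 3.88, SE 0.55, adjusted p = 2.75e-05). All its Aβ SA1-LTMR values lay at about the same low level. Lrrc55, a BK channel partner, stood at 8.24, 5.13, 6.35, 4.58 and 8.62 against 0.336, 2.27 and 3.45 CPM (log2FC 1.71, SE 0.42, adjusted p = 0.00678), or 2.36 without Aβ SA1-LTMR library 3. It did not pass in the 8 libraries alone (log2FC 1.73, adjusted p = 0.115), in the 6-library fit (log2FC 1.72, adjusted p = 0.211) or with the glia covariate (log2FC 1.17, adjusted p = 0.307).

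Leak, inward-rectifier and calcium- or sodium-activated potassium channels leaned to Aβ RA-LTMRs, with 12 of 30 higher there, 1 higher in Aβ SA1-LTMRs and a median log2FC of 0.87. Satellite glia use some of these channels, and the glial channel gene Kcnj10 was among the 12, at 94.7, 119, 101, 98.3 and 158 against 47.8, 43.2 and 43.8 CPM (log2FC 1.35, SE 0.24, adjusted p = 0.000363). With the glia covariate the counts were 6 and 1, and in the 8 libraries alone they were 5 and 1. Kcnj10 stood at log2FC 0.49, adjusted p = 0.369 with the covariate. As Kcnj10 is among the markers averaged in that score, its fall there was partly built in. Kcnk18, the TRESK leak channel of sensory neurons, stood at 6.17, 4.58, 3.04, 6.13 and 3.78 CPM against 0.260, 1.07 and 1.27 CPM (log2FC 2.45, SE 0.47, adjusted p = 0.00093). It passed with the covariate (log2FC 2.59, adjusted p = 0.0216) but did not pass in the 6-library fit (log2FC 2.42, adjusted p = 0.0689). The 1 gene of this list higher in Aβ SA1-LTMRs was Kcnj2, the strong inward rectifier Kir2.1, at 0.163, 0.774, 0.939, 0.755 and 0.937 CPM in Aβ RA-LTMRs and 13.4, 15.7 and 12.1 CPM in Aβ SA1-LTMRs (log2FC -4.27, SE 0.40, adjusted p = 9.63e-08). The classes lay far apart. The sodium-activated channel Kcnt1 did not pass (log2FC -0.42, SE 0.20, adjusted p = 0.171).

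**Figure D4:**
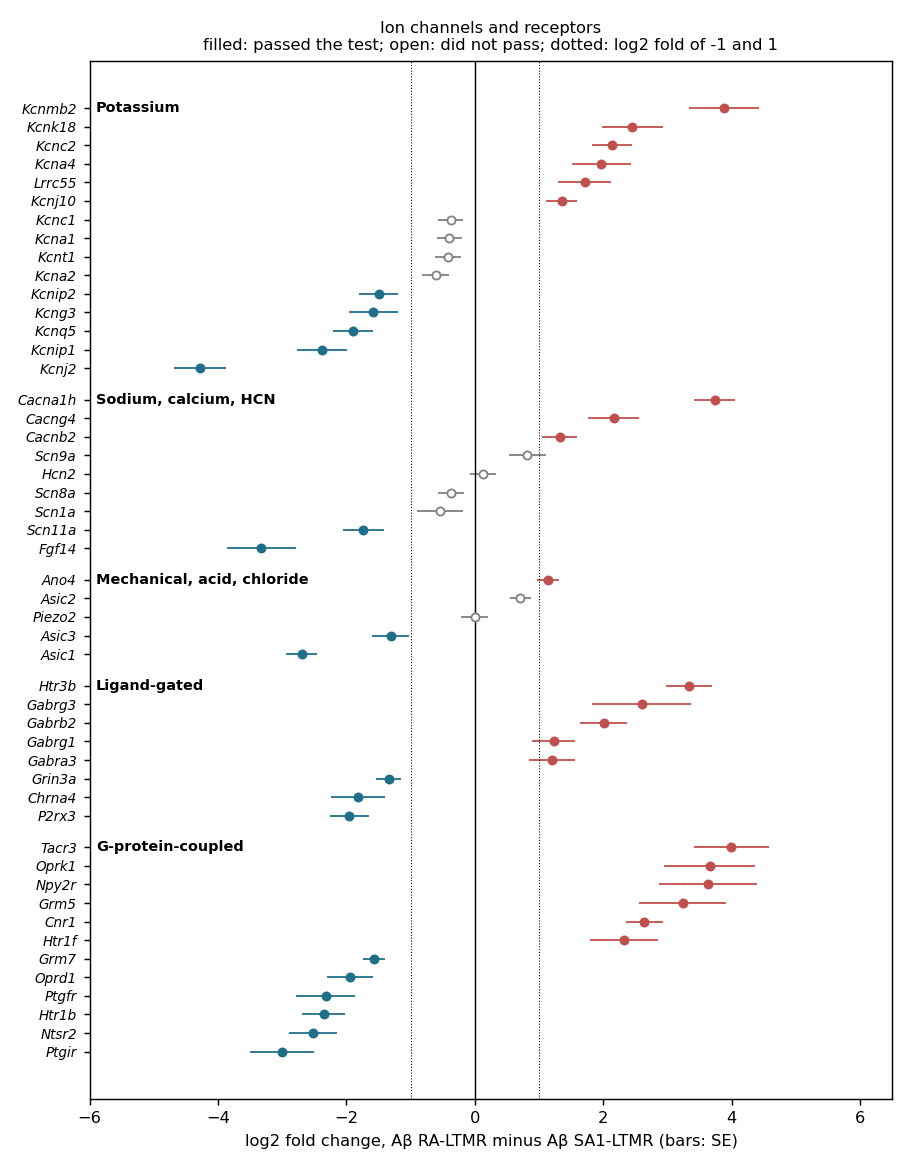
Log2 fold change of Aβ RA-LTMRs over Aβ SA1-LTMRs (x axis, bars of 1 SE) for ion channel and receptor genes by kind (y axis), filled where the gene passed and open where it did not. Kcnj2 and Asic1 lie far to the left, Kcnmb2 and Cacna1h far to the right, and Piezo2 on the line of no change.

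The common sodium channels of large fibres did not pass. Scn8a, the nodal channel Nav1.6, stood at 556 ± 128 CPM (SD, n = 5) in Aβ RA-LTMRs and 720.0 ± 85.7 CPM (SD, n = 3) in Aβ SA1-LTMRs (log2FC -0.37, SE 0.20, adjusted p = 0.239), and Scn1a, Nav1.1, at 472 ± 96.9 and 688 ± 102 CPM (log2FC -0.54, SE 0.36, adjusted p = 0.346). Scn9a, Nav1.7, did not pass (log2FC 0.81, SE 0.29, adjusted p = 0.0573), but did with Aβ RA-LTMR libraries 1 to 3 (log2FC 1.08, adjusted p = 0.0147), with read length as a covariate (log2FC 1.09, adjusted p = 0.0036) and without Aβ SA1-LTMR library 1 (log2FC 1.26, adjusted p = 0.00939). Of the 19 sodium channels and partners 3 were higher in Aβ SA1-LTMRs. Scn11a, the nociceptor channel Nav1.9, stood at 29.8, 11.03, 26.4, 44.6 and 39.2 CPM against 147, 93.6 and 61.2 CPM (log2FC -1.74, SE 0.32, adjusted p = 0.000525). It did not pass with the glia covariate (log2FC -1.63, adjusted p = 0.0676). Scn11a is a member of the nociceptor and C-fibre list, so the higher score of that list is not separate from it. Fgf14, a cytoplasmic factor that modulates sodium channel inactivation, stood at 1.11, 1.92, 1.79, 0.755 and 0.281 CPM against 3.41, 16.4 and 16.2 CPM (log2FC -3.33, SE 0.54, adjusted p = 0.000149). Aβ SA1-LTMR library 1 was the closest to the Aβ RA-LTMRs.

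Voltage-gated calcium channels had 4 of 23 members higher in Aβ RA-LTMRs and 0 higher in Aβ SA1-LTMRs, where DESeq2's Wald test also called 4 and 0 and edgeR's unadjusted p was under 0.05 for 5 and 5. Their median log2FC was -0.08. Cacna1h, the T-type channel Cav3.2 that lowers the threshold of touch afferents, stood at 42.8, 44.0, 48.6, 28.7 and 36.2 CPM in Aβ RA-LTMRs and 3.50, 2.06 and 3.45 CPM in Aβ SA1-LTMRs (log2FC 3.73, SE 0.32, adjusted p = 2.46e-08). The classes lay far apart, and the gene passed with the glia covariate (log2FC 4.36, adjusted p = 3.51e-07). Cacnb2, an auxiliary beta subunit, stood at 22.6 ± 3.48 against 9.08 ± 2.66 CPM (log2FC 1.32, SE 0.27, adjusted p = 0.00161). Cacng4, a gamma subunit that also escorts AMPA receptors, stood at 11.6, 11.55, 9.37, 11.1 and 22.8 against 1.18, 4.44 and 3.31 CPM (log2FC 2.16, SE 0.39, adjusted p = 0.000503) and lost its call with the glia covariate (log2FC 1.21, adjusted p = 0.153) and in the 6-library fit (log2FC 1.88, adjusted p = 0.0534). Of 4 HCN channels, which carry the sag current, 0 passed in edgeR or by DESeq2's Wald test. Higher in Aβ RA-LTMRs at an unadjusted p under 0.05 in edgeR were 2, and 1 passed as higher there with the glia covariate. Hcn2 stood at log2FC 0.13, SE 0.20, adjusted p = 0.744.

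No difference was detected in the touch channel itself. Piezo2 stood at 489, 561, 611, 511 and 336 CPM in Aβ RA-LTMRs and 645, 432 and 433 CPM in Aβ SA1-LTMRs (log2FC -0.01, SE 0.21, adjusted p = 0.996). Library 5 was the lowest and Aβ SA1-LTMR library 1 the highest, and the ranges overlapped. Of 30 mechanotransduction and acid-sensing channels, 2 were higher in each class, against 6.69% of all genes for Aβ RA-LTMRs and 3.65% for Aβ SA1-LTMRs. Both that were higher in Aβ SA1-LTMRs were acid-sensing channels, which are also studied as modulators of touch. Asic1 (chromosome 15, 99670368 to 99701130) stood at 33.9, 24.0, 32.8, 26.5 and 24.4 CPM against 124, 231 and 197 CPM (log2FC -2.70, SE 0.24, adjusted p = 2.73e-08), and passed with the glia covariate (log2FC -3.02, adjusted p = 4.42e-06). Asic3 stood at 47.4, 93.3, 90.7, 79.9 and 85.6 CPM against 163, 248 and 181 CPM (log2FC -1.31, SE 0.29, adjusted p = 0.0029), and missed it there (log2FC -1.07, adjusted p = 0.186). Asic2 lay the other way, at 32.5, 36.0, 40.2, 33.9 and 34.2 against 29.8, 18.7 and 16.6 CPM, and was under the fold threshold (log2FC 0.71, SE 0.16, adjusted p = 0.00471), which it reached only without Aβ SA1-LTMR library 1 (log2FC 1.01, adjusted p = 0.000149). Of 25 chloride channels and cotransporters, 1 passed in each direction. The TMEM16 gene Ano4 was the one higher in Aβ RA-LTMRs, at 73.0 ± 12.01 against 33.2 ± 1.30 CPM (log2FC 1.135, SE 0.17, adjusted p = 4.62e-05), under the fold threshold with limma on the authors' RPKM (log2FC 0.97, adjusted p = 0.02).

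GABA-A receptors mediate presynaptic inhibition of touch afferents in the spinal cord. Of 18 GABA-A and glycine receptor genes, 6 were higher in Aβ RA-LTMRs and 0 in Aβ SA1-LTMRs, the same counts as by DESeq2's Wald test, with 7 and 2 at an unadjusted p under 0.05 in edgeR. The median log2FC was 1.02, or 0.89 with genes at 0 counts in one class set to their bound. Gabrb2, a beta subunit, stood at 63.1, 65.1, 71.4, 46.3 and 28.1 CPM in Aβ RA-LTMRs and 21.6, 8.40 and 10.9 CPM in Aβ SA1-LTMRs (log2FC 2.00, SE 0.36, adjusted p = 0.000509). The classes did not overlap, Aβ SA1-LTMR library 1 was the closest to Aβ RA-LTMRs, and the gene passed with the glia covariate (log2FC 2.44, adjusted p = 0.0108), where 2 of the 18 passed in all. Gabrg1 (log2FC 1.23, SE 0.34, adjusted p = 0.0157), Gabra3 (log2FC 1.20, SE 0.36, adjusted p = 0.0253) and Gabrg3 (log2FC 2.59, SE 0.77, adjusted p = 0.0253) were less secure, and none of them passed with the glia covariate (log2FC 0.71, adjusted p = 0.49 for Gabrg1, log2FC 0.40, adjusted p = 0.739 for Gabra3 and log2FC 4.08, adjusted p = 0.0783 for Gabrg3). Gabra3 (log2FC 1.21, adjusted p = 0.0826) and Gabrg3 (log2FC 2.62, adjusted p = 0.21) did not pass in the 8 libraries alone, nor in the 6-library fit (log2FC 1.39, adjusted p = 0.0903 for Gabra3 and log2FC 2.85, adjusted p = 0.267 for Gabrg3). Gabrg1 did not pass without Aβ SA1-LTMR library 1 (log2FC 0.95, adjusted p = 0.0973). Gabra3 did not pass without Aβ RA-LTMR library 3 (log2FC 0.99, adjusted p = 0.0665), Aβ SA1-LTMR library 1 (log2FC 1.04, adjusted p = 0.107) or library 3 (log2FC 1.00, adjusted p = 0.1). Gabrg3 did not pass without Aβ SA1-LTMR library 2 (log2FC 2.06, adjusted p = 0.0714) or library 3 (log2FC 2.03, adjusted p = 0.0603), and was 7.19 without library 1.

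Other ligand-gated channels were divided between the classes. Of 19 purinergic, nicotinic and serotonin-gated channels, 4 passed in each direction. Htr3b, a subunit of the serotonin-gated 5-HT3 receptor, stood at 33.5, 27.8, 36.5, 24.7 and 35.9 CPM in Aβ RA-LTMRs and 1.74, 5.34 and 2.40 CPM in Aβ SA1-LTMRs (log2FC 3.33, SE 0.35, adjusted p = 4.81e-07), or 3.94 without Aβ SA1-LTMR library 2. P2rx3, the ATP-gated channel of nociceptors and also a member of the nociceptor and C-fibre list, stood at 4.12, 4.27, 3.81, 10.1 and 4.53 against 25.7, 20.7 and 15.1 CPM (log2FC -1.96, SE 0.30, adjusted p = 9.28e-05). It missed the threshold with the glia covariate (log2FC -1.52, adjusted p = 0.0542). Chrna4, a nicotinic subunit, was also higher in Aβ SA1-LTMRs, at 6.88 ± 1.57 against 1.96 ± 0.402 CPM (log2FC -1.82, SE 0.41, adjusted p = 0.00387), but limma on the authors' RPKM gave log2FC -0.95, adjusted p = 0.21. Among 19 ionotropic glutamate receptor genes, 1 was higher in Aβ RA-LTMRs and 2 in Aβ SA1-LTMRs, of which the NMDA subunit Grin3a stood at 16.2, 19.2, 24.4, 18.1 and 16.1 against 65.8, 45.9 and 31.6 CPM (log2FC -1.34, SE 0.19, adjusted p = 3.12e-05).

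Modulatory receptors coupled to G proteins passed as often in one direction as in the other, 14 and 14 of 71. Cnr1, the cannabinoid receptor CB1 that damps transmitter release, stood at 126, 122, 135, 128 and 70.2 CPM in Aβ RA-LTMRs and 17.9, 16.4 and 21.9 CPM in Aβ SA1-LTMRs (log2FC 2.63, SE 0.29, adjusted p = 7.72e-07), and library 5 was the lowest of its class. The opioid receptors Oprd1 and Oprk1 went opposite ways. Oprd1, the delta receptor, stood at 13.7, 11.7, 8.12, 11.9 and 9.09 against 46.1, 38.3 and 41.7 CPM (log2FC -1.95, SE 0.36, adjusted p = 0.000568), and Oprk1, the kappa receptor, at 6.66, 8.28, 6.78, 4.44 and 3.40 against 1.13, 0.257 and 0 CPM (log2FC 3.65, SE 0.71, adjusted p = 0.00095). Oprd1 missed the threshold with the glia covariate (log2FC -1.67, adjusted p = 0.105) and Oprk1 passed (log2FC 4.30, adjusted p = 0.017), but Oprk1 did not pass in the 6-library fit (log2FC 3.96, adjusted p = 0.0824). Without library 1 of Aβ SA1-LTMRs Oprk1 was 5.63, and without library 3 it was 3.06.

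Serotonin and glutamate receptors divided too. Htr1f stood at 21.9 ± 6.10 against 4.40 ± 2.02 CPM (log2FC 2.31, SE 0.53, adjusted p = 0.00402) and did not pass with the glia covariate (log2FC 1.58, adjusted p = 0.302), while Htr1b stood at 3.09 ± 1.22 against 16.0 ± 3.97 CPM (log2FC -2.36, SE 0.34, adjusted p = 3.38e-05). Grm5, a metabotropic glutamate receptor, stood at 4.75, 4.08, 6.15, 4.75 and 2.78 against 1.21, 0.171 and 0.0318 CPM (log2FC 3.23, SE 0.68, adjusted p = 0.00195), or 5.52 without Aβ SA1-LTMR library 1, and did not pass in the 6-library fit (log2FC 3.40, adjusted p = 0.102). Grm7 stood at 7.46 ± 1.65 against 22.1 ± 6.40 CPM (log2FC -1.57, SE 0.17, adjusted p = 1.05e-06). Ptgfr and Ptgir, receptors of prostanoids, were higher in Aβ SA1-LTMRs. Ptgfr, the prostaglandin F receptor, stood at 44.0, 53.3, 59.7, 34.5 and 28.3 CPM against 246, 196 and 219 CPM (log2FC -2.32, SE 0.46, adjusted p = 0.00141), well apart. With the glia covariate its fold was about as large, but it did not pass (log2FC -2.41, adjusted p = 0.0654). Ptgir, the prostacyclin receptor, stood at 1.32, 0.481, 2.08, 2.93 and 0.749 against 23.8, 5.81 and 5.87 CPM (log2FC -3.005, SE 0.50, adjusted p = 0.00023), or -1.99 without Aβ SA1-LTMR library 1, and did not pass with the covariate (log2FC -2.16, adjusted p = 0.12).

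A neurotensin receptor and neurotensin itself were both higher in Aβ SA1-LTMRs. Ntsr2, a neurotensin receptor, stood at 5.30, 5.40, 5.99, 6.31 and 3.40 CPM in Aβ RA-LTMRs and 22.1, 34.9 and 33.8 CPM in Aβ SA1-LTMRs (log2FC -2.52, SE 0.38, adjusted p = 6.26e-05). Nts, the peptide gene, stood at 1.09, 1.53, 2.67, 1.69 and 1.97 against 0.947, 34.4 and 74.0 CPM (log2FC -4.35, SE 0.72, adjusted p = 0.000192). Its high values were those of Aβ SA1-LTMR libraries 2 and 3, the same that had the higher injury scores, while library 1 lay below every Aβ RA-LTMR library, and without library 3 the log2FC was -3.30. Nts did not pass in the 6-library fit (log2FC -4.36, adjusted p = 0.0805). Of 29 peptide genes tested, 7 were higher in Aβ RA-LTMRs and 9 in Aβ SA1-LTMRs. Nmb, neuromedin B, stood at 4.17, 3.12, 3.50, 8.75 and 16.7 against 71.7, 22.5 and 32.5 CPM (log2FC -2.56, SE 0.42, adjusted p = 0.000214), or -1.95 without Aβ SA1-LTMR library 1. With Aβ RA-LTMR libraries 1 to 3 its difference was larger (log2FC -3.56, adjusted p = 2.48e-06), as it was with read length as a covariate (log2FC -3.55, adjusted p = 3.47e-07). Adcyap1, the peptide PACAP, stood at 10.97, 11.2, 11.8, 7.33 and 15.8 against 14.5, 39.3 and 51.8 CPM (log2FC -1.62, SE 0.28, adjusted p = 0.000256), where library 1 again lay in the Aβ RA-LTMR range, and did not pass in the 6-library fit (log2FC -1.62, adjusted p = 0.0552).

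Insulin-like growth factor (IGF) genes were divided too. Pappa and Pappa2 encode proteases that free IGF from its binding proteins. Pappa stood at 3.97, 6.65, 8.49, 4.798 and 2.44 CPM in Aβ RA-LTMRs and 22.2, 29.8 and 32.3 CPM in Aβ SA1-LTMRs (log2FC -2.41, SE 0.37, adjusted p = 8.49e-05). Pappa2 stood at 5.70, 8.79, 37.4, 3.15 and 0.718 against 83.6, 142 and 108 CPM (log2FC -3.30, SE 0.79, adjusted p = 0.00664). Library 3 was far above the other Aβ RA-LTMR libraries for Pappa2, and without it the difference was larger (log2FC -4.58, adjusted p = 0.000159). It was smaller with Aβ RA-LTMR libraries 1 to 3 (log2FC -2.69, adjusted p = 0.0151). Pappa2 did not pass in the 8 libraries alone (log2FC -3.30, adjusted p = 0.0734) or with the glia covariate (log2FC -4.03, adjusted p = 0.0602), where its fold was as large or larger. Igf1, the ligand, was higher in Aβ SA1-LTMRs at 7.09, 10.4 and 14.6 against 2.52, 0.753, 2.47, 1.33 and 0.0937 CPM (log2FC -2.86, SE 0.65, adjusted p = 0.00382). It did not pass with the covariate, where its fold was larger (log2FC -3.27, adjusted p = 0.0617). The binding protein Igfbp5 lay the other way, at 56.01, 46.7, 45.2, 25.5 and 73.8 CPM in Aβ RA-LTMRs and 6.74, 21.2 and 16.2 CPM in Aβ SA1-LTMRs (log2FC 1.75, SE 0.39, adjusted p = 0.00316), and did not pass with the glia covariate (log2FC 0.54, adjusted p = 0.579). Of 17 IGF genes tested, 4 were higher in Aβ RA-LTMRs and 3 in Aβ SA1-LTMRs.

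The neurofilament triplet, which sets axon calibre, did not pass. Beside Nefh, given above, Nefl (log2FC 0.15, SE 0.20, adjusted p = 0.673) and Nefm (log2FC -0.07, SE 0.20, adjusted p = 0.866) lay in overlapping ranges. Among 21 cytoskeletal genes of large axons, the actin bundler Fscn1 was the 1 higher in Aβ RA-LTMRs, at 19.1, 16.1, 23.6, 14.7 and 25.04 CPM against 0.749, 3.54 and 2.12 CPM (log2FC 3.22, SE 0.50, adjusted p = 9e-05). Release machinery counted 1 of 43 genes higher in Aβ RA-LTMRs and 5 higher in Aβ SA1-LTMRs. Rab3b, a vesicle GTPase, was the 1, at 5.34 ± 2.16 against 1.27 ± 0.626 CPM (log2FC 2.07, SE 0.38, adjusted p = 0.00054). Syt6, a synaptotagmin, stood at 3.99, 4.14, 5.69, 14.4 and 8.65 CPM in Aβ RA-LTMRs and 196, 45.6 and 54.1 CPM in Aβ SA1-LTMRs (log2FC -3.76, SE 0.37, adjusted p = 2.36e-07), or -2.78 without the highest library, number 1, and -4.42 with Aβ RA-LTMR libraries 1 to 3. Syt7, a slow calcium sensor of release, stood at 8.20, 5.77, 9.14, 21.7 and 12.7 against 43.3, 32.5 and 34.2 CPM (log2FC -1.69, SE 0.30, adjusted p = 0.000449).

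Synaptic organisers had 5 of 50 members higher in Aβ RA-LTMRs and 4 higher in Aβ SA1-LTMRs, against 6.69% and 3.65% of all genes tested. Cerebellins bridge neurexins to postsynaptic receptors, and Cbln2 and Cbln4 went one way and the neurexin Nrxn3 the other. Cbln2 stood at 59.0, 57.0, 68.1, 66.4 and 61.2 CPM in Aβ RA-LTMRs and 3.99, 4.8 and 23.8 CPM in Aβ SA1-LTMRs (log2FC 2.52, SE 0.47, adjusted p = 0.000637), with Aβ SA1-LTMR library 3 above the other two. Without it the log2FC was 3.83, and the gene did not pass with the glia covariate (log2FC 1.78, adjusted p = 0.114) or in the 6-library fit (log2FC 2.50, adjusted p = 0.0571). Nrxn3 stood at 102, 112, 139, 117 and 78.7 against 371, 409 and 290.1 CPM (log2FC -1.70, SE 0.17, adjusted p = 2.36e-07), and passed with the covariate (log2FC -1.55, adjusted p = 0.000442). Cntnap4, a neurexin relative, was higher in Aβ RA-LTMRs at 37.3 ± 4.36 against 7.62 ± 3.65 CPM (log2FC 2.29, SE 0.24, adjusted p = 4.81e-07), as was Il1rap, at 6.87 ± 1.73 against 1.62 ± 0.578 CPM (log2FC 2.08, SE 0.30, adjusted p = 4.16e-05).

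Guidance genes counted 9 of 70 higher in Aβ RA-LTMRs and 7 higher in Aβ SA1-LTMRs, against 6.69% and 3.65% of all genes tested. Both netrin-G genes, which encode membrane-anchored adhesion proteins, were higher in Aβ RA-LTMRs. Ntng1 stood at 342, 395, 369.5, 303 and 291 CPM against 101, 16.4 and 42.5 CPM (log2FC 2.67, SE 0.48, adjusted p = 0.000457), or 3.53 without Aβ SA1-LTMR library 1, and Ntng2 at 124, 138, 129.9, 123 and 134 against 61.6, 54.0 and 47.7 CPM (log2FC 1.25, SE 0.23, adjusted p = 0.000568). On the other side, the semaphorin Sema3f stood at 11.01, 13.0, 14.2, 12.3 and 16.1 CPM in Aβ RA-LTMRs and 49.1, 56.5 and 47.6 CPM in Aβ SA1-LTMRs (log2FC -1.94, SE 0.23, adjusted p = 2.47e-06), in tight ranges. The semaphorin receptors Plxna2 (log2FC -1.47, SE 0.20, adjusted p = 1.93e-05) and Nrp1 (log2FC -1.46, SE 0.25, adjusted p = 0.000261) were higher there as well, although Nrp1 did not pass with the glia covariate (log2FC -1.04, adjusted p = 0.112). The netrin receptor Unc5b was higher in Aβ SA1-LTMRs, at 14.1 ± 3.71 against 3.09 ± 0.616 CPM (log2FC -2.18, SE 0.25, adjusted p = 1.28e-06), and its paralog Unc5d in Aβ RA-LTMRs, as given above. Sema5b (log2FC 2.61, SE 0.40, adjusted p = 7.42e-05, or 3.45 without Aβ SA1-LTMR library 1) and the Slit receptor Robo2 (log2FC 1.18, SE 0.22, adjusted p = 0.000808) were higher in Aβ RA-LTMRs, but Robo2 did not pass with the covariate (log2FC 1.01, adjusted p = 0.0768) or with limma on the authors' RPKM (log2FC 0.86, adjusted p = 0.038).

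Among adhesion and matrix genes, 7 of 33 cadherins and protocadherins were higher in Aβ RA-LTMRs and 3 higher in Aβ SA1-LTMRs, as were 12 of 52 matrix genes against 4. With the glia covariate these counts were 2 and 3 for cadherins and 2 and 1 for matrix genes. The fibroblast gene Dcn, which encodes decorin, was higher in Aβ SA1-LTMRs, at 21.02 ± 7.80 against 4.62 ± 2.10 CPM (log2FC -2.19, SE 0.29, adjusted p = 1.43e-05), while 3 of 9 fibroblast markers were higher in Aβ RA-LTMRs. Itga6, a laminin receptor subunit, stood at 108, 99.9, 110.2, 79.5 and 69.5 CPM in Aβ RA-LTMRs and 26.2, 29.7 and 24.3 CPM in Aβ SA1-LTMRs (log2FC 1.81, SE 0.24, adjusted p = 1.26e-05). Itga3, its relative, stood at 101, 94.6, 126, 63.3 and 90.4 against 30.2, 4.20 and 13.1 CPM (log2FC 2.58, SE 0.43, adjusted p = 0.000223), or 3.45 without Aβ SA1-LTMR library 1. Both passed with the glia covariate (log2FC 1.36, adjusted p = 0.0137 for Itga6 and log2FC 3.75, adjusted p = 0.000328 for Itga3). Cdh13, a cadherin anchored to the membrane by a lipid, stood at 36.2 ± 6.33 against 8.96 ± 2.36 CPM (log2FC 2.02, SE 0.26, adjusted p = 6.3e-06), and Pcdh18 at 56.9 ± 14.1 against 18.3 ± 3.55 CPM (log2FC 1.64, SE 0.25, adjusted p = 8.53e-05). Among genes of the node and initial segment, Lgi2 was the 1 of 22 higher in Aβ RA-LTMRs, at 54.6 ± 7.88 against 18.8 ± 5.80 CPM (log2FC 1.54, SE 0.30, adjusted p = 0.00124).

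Of 58 oxidative phosphorylation subunits, 0 passed in either direction in edgeR or by DESeq2's Wald test, 1 had an unadjusted p under 0.05, and the median log2FC was 0.12. Sodium pump and calcium transport genes counted 7 of 28 higher in Aβ RA-LTMRs and 2 higher in Aβ SA1-LTMRs. Fxyd7, a brain regulator of the pump, stood at 44.3, 37.6, 57.2, 65.7 and 88.2 CPM in Aβ RA-LTMRs and 232, 319 and 339 CPM in Aβ SA1-LTMRs (log2FC -2.34, SE 0.34, adjusted p = 4.9e-05). The classes lay well apart in this gene.

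Levels in the other subtypes place the 24 genes of largest fold. On the mean log2 CPM scale the Aδ-LTMRs, the TrkB afferents of hair follicles, lay nearer to Aβ RA-LTMRs than to Aβ SA1-LTMRs for 12 of the 12 genes higher in Aβ RA-LTMRs and for 10 of the 12 higher in Aβ SA1-LTMRs. The Aβ Field-LTMRs, labelled with the Aβ SA1-LTMRs' alleles but by tamoxifen after birth, lay nearer to Aβ SA1-LTMRs for 8 and 5 of these genes. Proprioceptors lay nearer to Aβ SA1-LTMRs for 7 and 3. C-LTMRs lay nearer to Aβ SA1-LTMRs for 8 and 6, peptidergic nociceptors for 8 and 6, and nonpeptidergic nociceptors for 10 and 4. These counts describe genes chosen for their difference between 2 of the groups, and no test was made of them. Runx3 was 76.4 ± 4.86 CPM (SD, n = 3) in proprioceptors and 1.81 ± 1.36 CPM in Aβ Field-LTMRs, the other group with the Aβ SA1-LTMRs' alleles. Calb1 was 95.0 ± 24.1 CPM in Aδ-LTMRs and 22.8 ± 20.3 CPM in Aβ Field-LTMRs. Kcnq5, of the potassium channels, was 115 ± 35.1 CPM in Aβ Field-LTMRs, a mean above every library of the 2 classes compared. Rgs5, named above as a pericyte marker, had a mean log2 CPM of 10.2 in C-LTMRs and 8.12 in Aδ-LTMRs. It stood at 4.20 in Aβ SA1-LTMRs and 1.98 in Aβ Field-LTMRs on this scale.

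**Figure D5:**
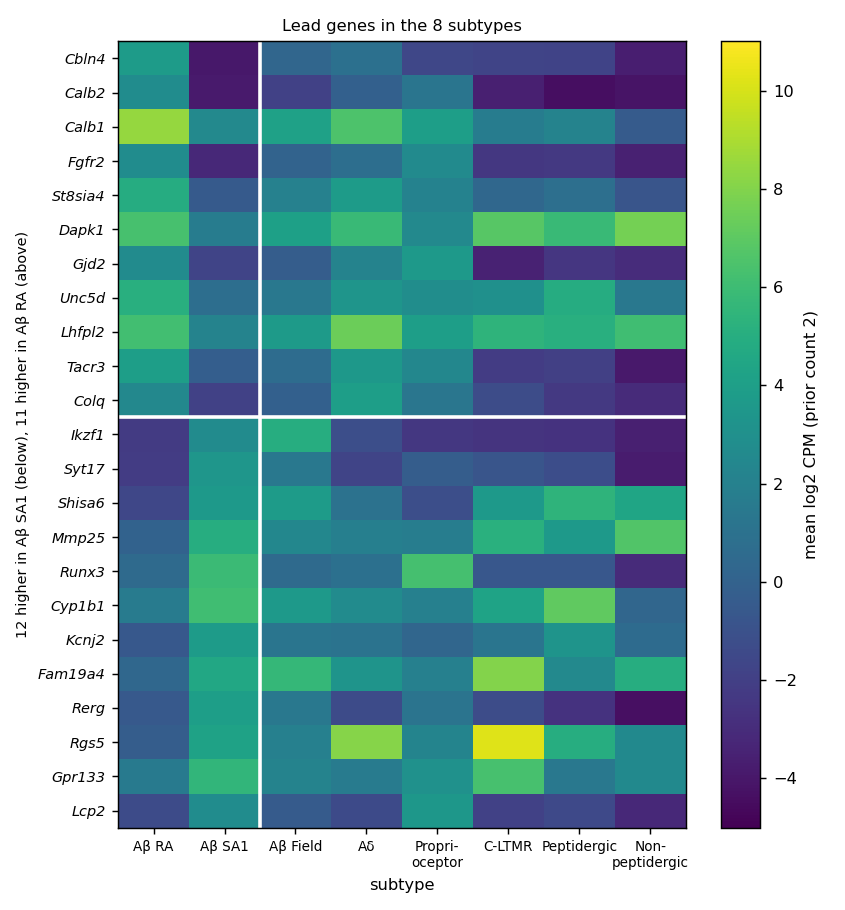
Mean log2 CPM (colour, prior count of 2) of 23 of the 24 genes of largest fold (rows) in the 8 sensory neuron subtypes (columns), with 5 libraries for Aβ RA-LTMRs and 3 for each other subtype. The 2 columns at left are the classes compared, the upper 11 rows are higher in Aβ RA-LTMRs and the lower 12 in Aβ SA1-LTMRs. Runx3 is bright in Aβ SA1-LTMRs and proprioceptors, and Calb1 in Aβ RA-LTMRs and Aδ-LTMRs.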

How the data were processed

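RNA sequencing libraries of 26 sorted pools of mouse sensory neurons in 8 subtypes were used, of which 5 Aβ RA-LTMR and 3 Aβ SA1-LTMR libraries were compared. The authors deposited raw counts of reads per gene for each library, and RPKM values of the same libraries. Per the file headers, a summary by the authors gives the GC percent, the fraction of reads that were exonic, intronic, intergenic, mapped or duplicated, the count of mapped reads and a ratio of 5′ to 3′ bias for each library. The submitters' processing notes list mm10, FastQC 0.11.3, STAR, Cuffdiff, HTSeq 0.6.1 and DESeq2 1.14.1, without saying which made which file, and whether counting used strand is not given in the sources used here. RNA was amplified before library preparation, per the labels' protocols, so counts are not independent molecules. The labels do not say that libraries of 1 class share no animals. The p-values of the main edgeR fit rest on a spread between libraries estimated over all 26, not over the compared libraries alone.

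Genes were filtered with filterByExpr and scaled by TMM factors, and edgeR 4.0.16 in R 4.3.3 was fitted to all 26 libraries with 1 term per subtype, with glmQLFTest for Aβ RA-LTMRs minus Aβ SA1-LTMRs. Fitting all subtypes lets the spread be estimated from every group (common dispersion 0.107). A standard error is the absolute log2 fold change over the square root of the F statistic. On simulated counts for 17411 genes in this comparison, with 200 genes changed, 28.0% of those changed 2-fold and 71.0% of those changed 4-fold were recovered, and 1.0% of calls were false. The simulation gave a gene the same spread in all subtypes, and unchanged genes the same mean. These rates therefore do not cover classes of unequal spread. Between libraries of a class, chi-square per degree of freedom against counting noise was 163 in Aβ RA-LTMRs and 403 in Aβ SA1-LTMRs. That measure also rises with depth. The mean log2 CPM of 11 lists used a prior count of 2 and exact permutation tests. Symbols came from the RPKM table (38828 genes) or a gene name table (180), and positions from GENCODE M21 on mm10 (37607).

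Alternatives were Aβ RA-LTMR libraries 1 to 3, the 8 or 6 libraries alone, a replicate block, read length or the satellite glia score as a covariate, DESeq2 1.42.0 size factors and Wald test, 2 other filters, limma 3.58.1 on log2(RPKM + 0.1), and each library left out. The members and the 42 gene lists were chosen with earlier results of these data known. Named genes were the 3 labelling genes, the 12 with the largest fold in each direction among those passing with at least 5 CPM in the higher class, at least 4 counts in the lower class and no overlap, up to 4 members of each list by adjusted p in each direction (all passing members for channels and receptors), and set members of touch physiology whether or not they passed. Not all of these are printed, and some results are not reported here, among them 1 of the 24 genes of largest fold. Kcnip4, named only without values, was chosen after its values were seen. Regularised log values were not used here.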

Additional observations from a re-analysis of the deposited data

Results flagged for a closer look

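Among the levels of the genes given above, and the list scores, 131 sets of 5 Aβ RA-LTMR values were examined for a library far from the others by Dixon's criterion (a gap over 0.71 of the range), which chance meets in about 1 of 20 sets. It was met in 6. Mmp25 had 2.62 CPM in library 4 of Aβ RA-LTMRs and 0.607 to 1.03 CPM in the others. Kcnj2 stood at 0.163 CPM in library 1 and 0.755 to 0.939 CPM in the others. Cacng4 stood at 22.8 CPM in library 5 and 9.37 to 11.6 CPM in the others. P2rx3 stood at 10.1 CPM in library 4 and 3.81 to 4.53 CPM in the others. Cnr1 stood at 70.2 CPM in library 5 and 122 to 135 CPM in the others. Pappa2 stood at 37.4 CPM in library 3 and 0.718 to 8.79 CPM in the others.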

How the results depend on the processing

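From 1164 genes higher in Aβ RA-LTMRs and 635 higher in Aβ SA1-LTMRs (1799 in all), the counts moved to 424, 258 and 682 in the 8 libraries alone, to 290, 218 and 508 with Aβ RA-LTMR libraries 1 to 3 and the 3 Aβ SA1-LTMR libraries alone, and to 286, 242 and 528 under the glia covariate. With limma on the authors' RPKM 719 were higher in Aβ RA-LTMRs. The cause was not tested. Fits without the other subtypes hold fewer libraries and estimate the spread from those alone. Leaving out each library in turn gave 953 to 1398, 545 to 716 and 1561 to 2108. Replicate numbers did not pair the libraries: same-numbered libraries' deviations correlated at -0.087, -0.058 and -0.202, and the fit of the 8 libraries with a replicate block called 214, 157 and 371. Without Aβ SA1-LTMR library 2, 1 gene passed in the opposite direction. For the 121 genes with printed values, 0 of 2296 alternative values reversed a call, 101 lost it and 8 gained it, most losses being with the glia covariate (30) and the replicate block (21). The block ended the calls of Kcnk18 (adjusted p = 0.121) and Kcnc2 (adjusted p = 0.126) among others, and no filter on low counts those of Gabra3, Gabrg1, Gabrg3, Gfra2 and Pvalb (adjusted p = 0.053 to 0.08). Of the genes that stayed past the threshold, the log2FC moved by over 1.5 times for 18 with the glia covariate, 4 with Aβ RA-LTMR libraries 1 to 3 and 25 with limma on RPKM, whose scale holds a pseudocount. No list score passed the exact permutation test over all libraries (smallest adjusted p = 0.0982). With a library left out none could, as that test doubles the p of a single tail. Of 110 alternative list scores 104 kept their direction, and the others were those of erythroid cells (5) and macrophages (1). DESeq2's Wald test called 2101 genes and no filter 1749. Low depth in Aβ RA-LTMR libraries 4 and 5 limits genes near 0 counts.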
